A study of Homo sapiens with 25 samples.

Results

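The collagen genes encode the chains of the collagen triple helix, and 42 of them were examined here among the 19111 protein-coding genes of the autosomes. They were chosen by name alone, as every autosomal protein-coding gene of GENCODE release 44 whose symbol reads COL, a number, A and a number. The 2 collagen genes on chromosome X, of 44 in all, were left out. Of the 42, 11 encode fibrillar chains (COL1A1, COL1A2, COL2A1, COL3A1, COL5A1, COL5A2, COL5A3, COL11A1, COL11A2, COL24A1 and COL27A1) and the other 31 encode network-forming, beaded-filament, anchoring, fibril-associated, membrane-spanning and basement membrane chains. The fibrillar class was set against the other 31 throughout.

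Collagen chains wind into triple helices that are secreted and assembled outside the cell. Fibrillar collagens form the tensile fibres of stroma, bone and cartilage, type IV collagen forms the sheet of basement membranes, and fibril-associated collagens with interrupted triple helices (FACIT collagens) decorate fibre surfaces. In tumours most fibrillar collagen is made by fibroblasts.

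The cells were MDA-MB-231, an established human triple-negative breast cancer line with mesenchymal features. The study used chromatin immunoprecipitation sequencing to map PML, which builds PML nuclear bodies, lamin B1 (LMNB1), which lines the inner nuclear membrane, and histone marks. Control cells were set against cells in which a lentivirus delivered a short hairpin RNA to PML, both from the 1 line and 1 culture medium, and the labels do not say what the control cells received. The 25 libraries were 3 of PML, 2 per condition of LMNB1, H3K9me3, H3K27me3, H3K4me3 and H3K27ac, and 1 input per condition. The titles of the PML libraries name no condition, and none was titled as knockdown. H3K9me3 marks repressed chromatin, H3K4me3 marks promoters, and H3K27ac marks active promoters and enhancers. Libraries of H3K27me3 and input are not analysed here.

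Each target and condition was represented by 1 list, so no value had an error between replicates and no difference between control and knockdown was tested. The 5 lists of broad domains held 420 PML, 410 and 380 LMNB1 and 430 and 281 H3K9me3 domains, control before knockdown. The 4 lists of narrow peaks held 22284 and 27828 H3K4me3 and 42396 and 43675 H3K27ac peaks. The read depth of the libraries was unknown, and a gene without a peak or domain was below the authors' calling threshold, not shown to lack the mark. Domain borders lay on grids of 9 kb (PML), 17 and 22 kb (LMNB1) and 23 and 35 kb (H3K9me3), so that the lists also differed in resolution. As a check of the line, the promoters of VIM, a mesenchymal filament gene, and KRT18, a simple-epithelial keratin gene, held peaks in all 4 lists, and that of CDH1, the epithelial cadherin gene, in none. Those of EPCAM and ESR1, the estrogen receptor gene, held H3K4me3 peaks at the 16.1 and 5.15 percentile of marked promoters in the control list.

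A collagen gene was placed in a domain when the start of its reference transcript lay inside it. PML domains held the starts of 7 of the 42 collagen genes (16.7%), a share near the 13.7% of all genes. Of these 7, 5 were fibrillar (COL1A2, COL3A1, COL5A2, COL11A1 and COL24A1) and 2 were not (COL10A1 and COL21A1). The fibrillar share was therefore 5 of 11 (45.5%) against 2 of 31 (6.45%) of the other collagens, a difference of 39.0 percentage points that was not tested. COL3A1 and COL5A2 are neighbours in a single PML domain, so the 7 genes occupied 6 domains and are not independent observations. With COL3A1 and COL5A2 counted as 1 gene, the difference was 33.5 points. The remaining 6 fibrillar genes, COL1A1, COL2A1, COL5A1, COL5A3, COL11A2 and COL27A1, started in no domain of any of the 5 lists, as did 21 of the 31 other collagens; over all genes this share was 77.9%.

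**Figure D1:**
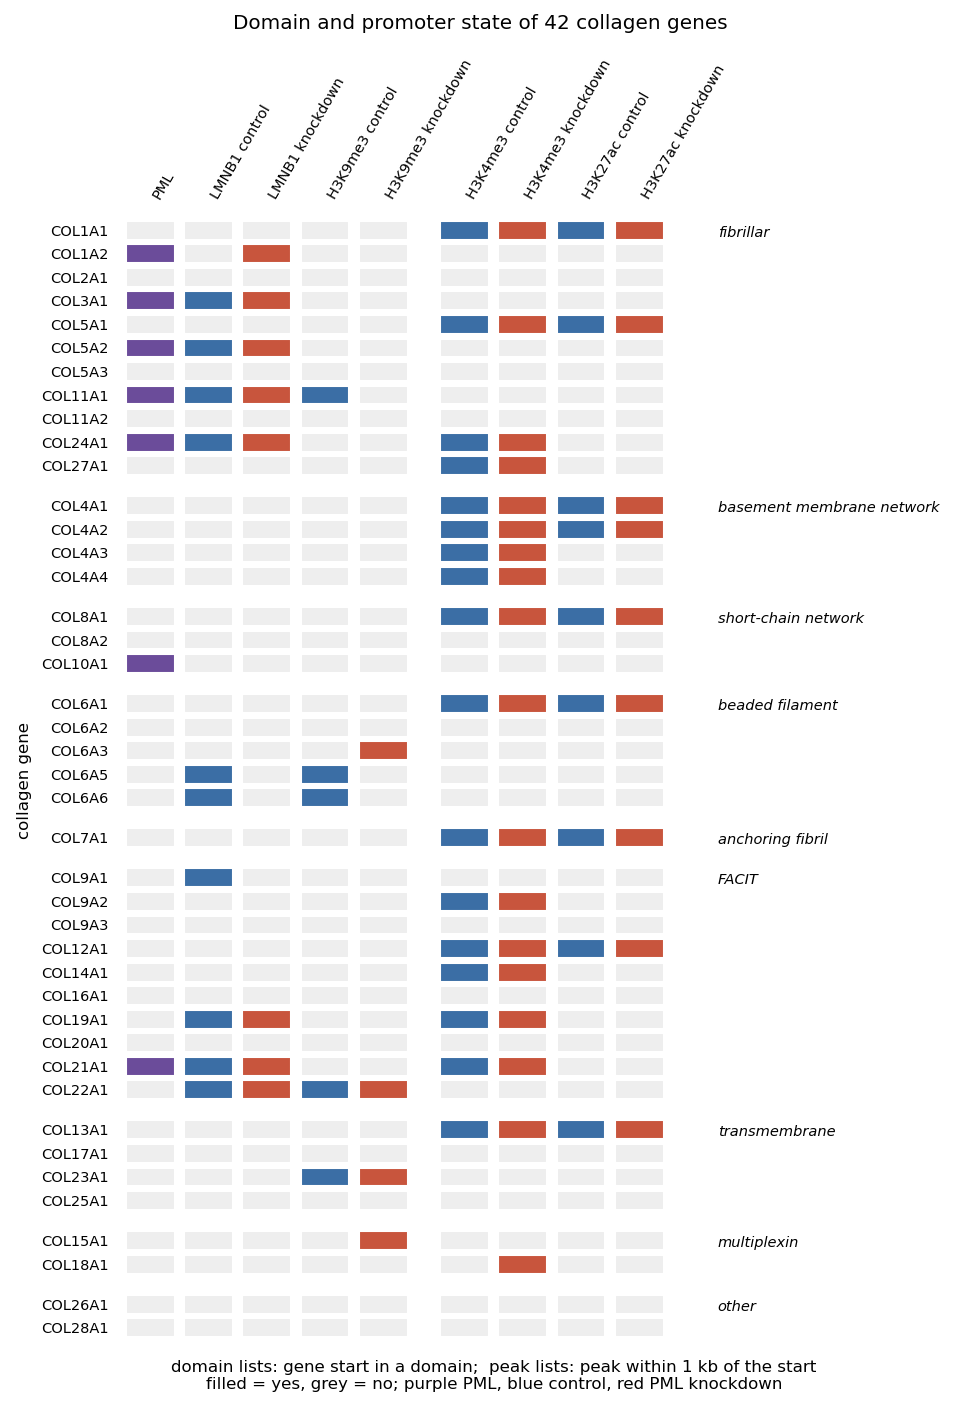
Domain and promoter state of the 42 collagen genes, with genes as rows grouped by class and the 9 lists as columns (PML purple, control blue, PML knockdown red). A filled cell marks a gene start inside a domain (first 5 columns) or a peak within 1 kb of the start (last 4 columns); PML domains hold 5 of the 11 fibrillar rows and 2 of the other 31.

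The 2 chains of heterotrimeric type I collagen, the main collagen of bone, skin and tumour stroma, differed in domain and promoter state. COL1A2 (hg38, chr7:94394895-94431227, plus strand) started 1524 kb inside a PML domain of 4.13 Mb (chr7:92871001-97002000). COL1A1 (chr17:50184101-50201632, minus strand) started 1062 kb from the nearest PML domain. COL1A1 had H3K4me3 and H3K27ac peaks that reached within 1 kb of its start in both conditions and COL1A2 had none. The summits of the COL1A1 H3K4me3 peaks lay further out, 1625 bp (control) and 1526 bp (knockdown) past the start. Its control H3K27ac peak began 745 bp past the start and was lost with a promoter of 0.5 kb on either side. Another annotated gene starts near COL1A1, and which start these peaks belong to was not tested.

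COL3A1, the chain of type III collagen in vessels and skin (chr2:188974373-189012746, plus strand), and COL5A2, a chain of the type V collagen that nucleates fibrils (chr2:189031898-189225312, minus strand), start 205 kb apart. Their shared PML domain ran over 6.13 Mb (chr2:183267001-189396000). The LMNB1 domains around them had almost the same borders, chr2:183175001-189312000 in control and chr2:183194001-189288000 in knockdown cells. All 3 domains therefore covered the whole of COL3A1 and COL5A2, and the H3K9me3 domain nearest to either start, in either list, was 27330 kb away.

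COL11A1, a chain of the type XI collagen of cartilage that is widely studied in invasive carcinoma (chr1:102876467-103108872, minus strand), lay deepest, 4999 kb inside a 12.8 Mb PML domain. The PML domain (chr1:95301001-108108000) nearly coincided with the LMNB1 domains of control (chr1:95251001-108120000) and knockdown cells (chr1:95238001-108152000). COL24A1, a minor fibrillar chain (chr1:85729233-86156943, minus strand), lay in the longest of the 6 PML domains, of 20.4 Mb. Its LMNB1 domains were short and low in score: 0.952 Mb at the 7.32 percentile of control scores, and 0.814 Mb at the 0.263 percentile of knockdown scores, the lowest-scoring domain of that list.

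The 2 non-fibrillar members in PML domains differed in depth. COL21A1, a FACIT chain (chr6:56056590-56394094, minus strand), started 2198 kb inside a domain of 13.7 Mb and lay in LMNB1 domains of both lists. COL10A1, the short-chain collagen of hypertrophic cartilage (chr6:116118909-116158747, minus strand), started 45.9 kb inside a domain of 1.83 Mb and 50.1 and 54.1 kb outside the nearest control and knockdown LMNB1 domain. On the other side of the line, COL8A1 started 17.6 kb outside a PML domain, the closest miss among the 42.

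The promoters of 4 of these 7 genes are shown because they are the PML-domain collagens with an entry in the RefSeq table (GRCh38.p14), which matched 30 of the 42 members by symbol. COL1A1, COL1A2, COL2A1, COL3A1, COL5A2, COL6A1, COL6A5, COL8A1, COL9A3, COL14A1, COL20A1 and COL22A1 had no match. Each window runs from 250 bases before to 50 bases after the gene start, 5′ to 3′ on the gene's strand, with every CpG in capitals. The window of COL4A2 was added after values were seen, because it also covers the start of the head-to-head neighbour COL4A1 and serves as a marked promoter for comparison.
COL11A1: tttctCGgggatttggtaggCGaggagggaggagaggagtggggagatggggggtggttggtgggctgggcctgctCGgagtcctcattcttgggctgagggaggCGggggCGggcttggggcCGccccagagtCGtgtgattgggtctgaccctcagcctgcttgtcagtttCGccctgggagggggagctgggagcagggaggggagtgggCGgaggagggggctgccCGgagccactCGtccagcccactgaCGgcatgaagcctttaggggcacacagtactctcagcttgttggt
COL24A1: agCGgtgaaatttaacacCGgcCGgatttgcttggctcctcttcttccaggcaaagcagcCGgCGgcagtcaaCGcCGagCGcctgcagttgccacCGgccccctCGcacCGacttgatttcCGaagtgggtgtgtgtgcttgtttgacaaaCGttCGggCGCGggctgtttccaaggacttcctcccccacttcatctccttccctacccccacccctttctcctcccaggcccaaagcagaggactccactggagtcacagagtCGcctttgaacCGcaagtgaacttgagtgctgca
COL10A1: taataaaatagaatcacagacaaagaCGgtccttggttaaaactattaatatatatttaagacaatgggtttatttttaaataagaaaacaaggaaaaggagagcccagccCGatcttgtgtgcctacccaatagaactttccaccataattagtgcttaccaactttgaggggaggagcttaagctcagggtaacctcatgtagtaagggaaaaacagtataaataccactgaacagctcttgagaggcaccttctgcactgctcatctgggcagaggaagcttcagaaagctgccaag
COL21A1: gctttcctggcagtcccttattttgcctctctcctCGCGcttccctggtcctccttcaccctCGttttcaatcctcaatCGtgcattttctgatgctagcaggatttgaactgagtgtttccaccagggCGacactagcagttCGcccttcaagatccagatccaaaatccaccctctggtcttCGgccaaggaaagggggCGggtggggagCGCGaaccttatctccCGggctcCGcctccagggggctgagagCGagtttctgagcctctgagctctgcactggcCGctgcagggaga
COL4A2: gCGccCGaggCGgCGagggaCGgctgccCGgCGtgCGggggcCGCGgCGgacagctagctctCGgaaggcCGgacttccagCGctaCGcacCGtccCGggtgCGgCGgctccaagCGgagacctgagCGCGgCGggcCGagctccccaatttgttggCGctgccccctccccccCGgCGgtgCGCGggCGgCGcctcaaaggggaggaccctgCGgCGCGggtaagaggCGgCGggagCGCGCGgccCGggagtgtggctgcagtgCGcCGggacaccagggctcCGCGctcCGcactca
These windows are chr1:103108473-103108772 (COL11A1), chr1:86156723-86157022 (COL24A1), chr6:116126083-116126382 (COL10A1), chr6:56247531-56247830 (COL21A1), all on the minus strand, and chr13:110307034-110307333 (COL4A2, plus strand). They held 12, 18, 2, 14 and 45 CpG, against a median of 24 over the 14616 promoters of the table. All 4 PML-domain windows were below that median and the type IV window was at the 95.6 percentile of the table. Of these 4 genes, COL21A1 and COL24A1 also had promoter H3K4me3 peaks in both lists, without H3K27ac. Windows picked in this way do not compare marked with unmarked promoters.

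Short motifs were searched on both strands of these windows. COL10A1 held TATAAA, the core of a TATA box, 31 bases before its start, and CCAAT 122 bases before it. COL11A1 held GGGCGG, a GC box, 3 times and CCAAT 1 time, COL21A1 held GGGCGG 1 time, COL4A2 held CCAAT and GGGCGG 1 time each, and COL24A1 held none of the motifs. TGANTCA, an AP-1 site, was in none of the 5 windows, and no matches overlapped. Over all 14616 promoters, TATAAA was in 9.46%, CCAAT in 36.3%, GGGCGG in 62.2% and TGANTCA in 5.42%.

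LMNB1 domains held 10 collagen starts (23.8%) in the control list, against 12.9% of all genes, and 8 (19.0%) in the knockdown list, against 11.4%. The fibrillar genes among them were COL3A1, COL5A2, COL11A1 and COL24A1 in control cells, and the same 4 with COL1A2 in knockdown cells. Of the other collagens, 3 FACIT genes (COL19A1, COL21A1 and COL22A1) were in LMNB1 domains of both lists. The fibrillar share exceeded the other share by 17.0 points in control and 35.8 points in knockdown cells. Among these, COL3A1, COL5A2, COL11A1, COL21A1 and COL24A1, 5 members against 11.2% of all genes, started in both a PML and a control LMNB1 domain.

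COL1A2 was the 1 collagen in an LMNB1 domain of the knockdown list alone, where 0.628% of all genes were. Its start lay 73.1 kb inside a knockdown domain of 1.39 Mb (chr7:93082001-94468000) and 95.9 kb outside the nearest control domain. Both distances are several steps of the 17 and 22 kb grids. The promoter held no peak of either mark in either condition.

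COL6A5, COL6A6 and COL9A1 were in LMNB1 domains of the control list alone, against 2.13% of all genes. COL6A5 (chr3:130345516-130484846, plus strand) and COL6A6 (chr3:130517177-130677044, plus strand) encode alternative long chains of the beaded filament collagen VI and share a short control domain of 0.544 Mb (chr3:130169001-130713000), at the 12.2 percentile of scores. The nearest knockdown LMNB1 domain was 1060 and 889 kb away. COL9A1, a FACIT chain of cartilage (chr6:70216040-70303084, minus strand), started only 8.92 kb inside the control domain and 79.1 kb outside the knockdown one, and the former distance is less than 1 grid step.

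H3K9me3 domains held 5 collagen starts (11.9%) in control, against 10.4% of all genes, and 4 (9.52%) in knockdown cells, against 8.72%. Both shares were near those of all genes. COL22A1, a FACIT chain (chr8:138588235-138914041, minus strand), and COL23A1, a membrane-spanning chain (chr5:178237476-178590393, minus strand), were in domains of both lists. COL6A5, COL6A6 and COL11A1 were in control domains only, against 4.97%, and COL6A3 and COL15A1 in knockdown domains only, against 3.31%. The 1 fibrillar member among these was COL11A1.

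The members that differed between the H3K9me3 lists did so by more than a grid step. COL11A1 started 391 kb inside a control domain of 2.21 Mb (chr1:101292001-103500000), and the nearest knockdown domain was 8646 kb away. COL6A5 and COL6A6 shared a control domain of 0.529 Mb (chr3:130134001-130663000) at the 13.5 percentile of scores, which nearly coincides with their control LMNB1 domain, and the nearest knockdown domain was 2806 and 2977 kb away. The same stretch of chromosome 3 was thus called in both control lists and in neither knockdown list.

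COL6A3, the long chain of ubiquitous collagen VI (chr2:237324003-237414328, minus strand), started 271 kb inside a knockdown H3K9me3 domain (chr2:236180001-237685000) and 330 kb from the nearest control one. COL15A1, a basement membrane zone proteoglycan collagen (chr9:98943179-99070792, plus strand), started 176 kb inside a knockdown domain of 0.840 Mb and 1658 kb from a control one. The knockdown list held fewer domains in total (281 against 430, covering 361 against 629 Mb), and how much of these differences follows the length of the lists was not tested.

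**Figure D2:**
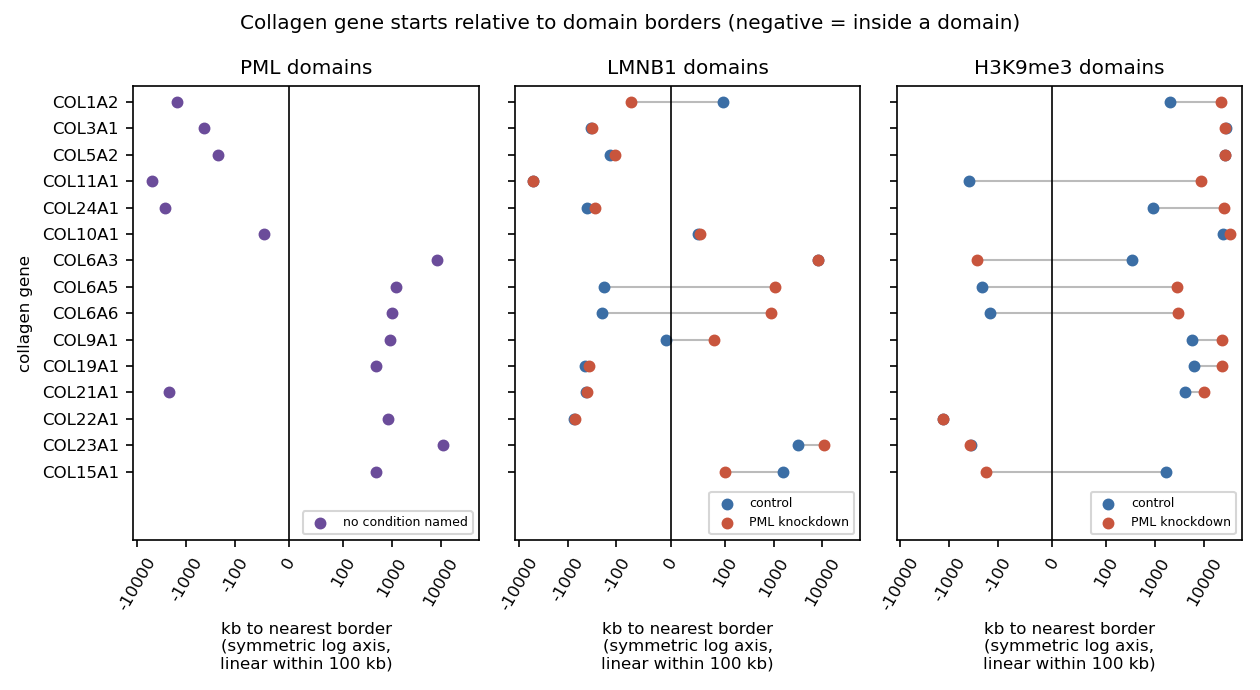
Distance of the start of each of the 15 collagen genes that lie in at least 1 domain to the nearest domain border, in kb on a symmetric log axis, with negative values inside a domain (purple PML, blue control, red PML knockdown). COL1A2 lies 95.9 kb outside the nearest LMNB1 domain of the control list and 73.1 kb inside one of the knockdown list. COL6A5 and COL6A6 lie in an LMNB1 and an H3K9me3 domain of the control lists only. No difference between lists was tested.

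Collagen promoters, taken as 1 kb on either side of the start, were mostly without peaks of the 2 active marks. H3K4me3 peaks lay at 17 of the 42 in control, where 62.5% of all promoters were marked, and at 18 in knockdown cells, where 64.4% were. H3K27ac peaks lay at 9 collagen promoters in each condition, against 51.4% and 54.3% of all promoters. These counts use the reference start alone. A further 5 collagens in control and 7 in knockdown cells held an H3K27ac peak at another annotated start. For H3K4me3 these were 0 and 2. The same share over all genes was not computed. No peak of either mark in either condition was found at 24 collagen promoters, against 34.5% of all, and this unmarked set included 7 of the 11 fibrillar genes and 17 of the other 31.

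The 4 fibrillar genes with H3K4me3 were COL1A1, COL5A1, COL24A1 and COL27A1, and only COL1A1 and COL5A1 also had H3K27ac, in both conditions. Over all 42, both marks lay at 9 promoters in each condition, against 50.3% and 53.3% of all promoters, and H3K4me3 without H3K27ac at 8 and 9, against 12.2% and 11%. For H3K4me3 the fibrillar share was 5.57 points below that of the other collagens in control and 8.80 points below in knockdown cells. This order turned with the width of the promoter: with 2.5 kb on either side, COL2A1 and COL11A1 joined and the fibrillar share was 9.38 points above in both conditions, and with 0.5 kb it was 0.880 points above in control. For H3K27ac it was 4.40 points below in both conditions.

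The unmarked fibrillar promoters were COL1A2, COL2A1, COL3A1, COL5A2, COL5A3, COL11A1 and COL11A2. COL2A1, the main collagen of cartilage (chr12:47972967-48004554, minus strand), had an H3K4me3 peak with its edge 1.63 kb past the start in control and 1.43 kb in knockdown cells, at the 68.1 and 63.8 percentile of all peaks of its list. COL11A1 had one 1.36 and 1.35 kb past its start, at the 35.7 and 49.8 percentile. Both peaks lay in intron 1. COL1A2 stood far from any peak: its nearest H3K4me3 peak was 114 kb and its nearest H3K27ac peak 92.7 kb away in control.

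The fold enrichment of a peak over background is the authors' own value and is not on one scale between lists, so it was read as a percentile among the marked promoters of its list. By this rank the marked collagen promoters were low for H3K4me3, with a median at the 13.9 percentile in control and the 11.97 percentile in knockdown cells. Of the 17 in control, 10 were below the 20th percentile and none was above the 73.0 percentile. For H3K27ac the medians of the 9 were at the 50.03 and 56.67 percentile. Both are the value of the peak that COL4A1 and COL4A2 share, which was counted for each gene. The 9 ranged from the 5.62 to the 90.7 percentile in control and from the 14.7 to the 77.8 percentile in knockdown cells.

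The highest H3K4me3 folds belonged to network and membrane-spanning collagens and not to fibrillar ones. COL8A1, a short-chain collagen of vessel and corneal matrices, had folds of 26.0 and 40.8, control before knockdown (percentiles 73.0 and 59.0). COL4A1 and COL4A2 had 25.6 and 51.2 (71.8 and 73.1), and COL13A1, a membrane-spanning chain of cell-matrix junctions, had 25.3 and 55.2 (71.2 and 77.9). The value for COL4A1 and COL4A2 is that of a shared peak on the COL4A2 side of their starts. The peak on the COL4A1 side had folds of 5.93 and 10.7. Among fibrillar genes COL5A1, the other main chain of type V collagen, was highest with 22.4 and 33.4 (63.3 and 46.9).

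The other 3 marked fibrillar promoters ranked lower. COL1A1 had H3K4me3 folds of 8.76 and 19.8 (16.1 and 24.03 percentile) and H3K27ac folds of 2.92 and 4.88 (5.62 and 14.7 percentile), control before knockdown. COL27A1 had H3K4me3 folds of 3.37 and 14.1 and COL24A1 of 3.91 and 5.85. In the PML-domain FACIT gene COL21A1 they were 2.54 and 7.17, the former at the 0.553 percentile. At COL24A1, COL27A1 and COL21A1 no H3K27ac peak accompanied the H3K4me3 peak.

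Several peaks lay beside a start and not over it. The control H3K4me3 peak of COL24A1 began 120 bp past the start and that of COL1A1 311 bp past it. COL4A1 (chr13:110148963-110307157, minus strand) and COL4A2 (chr13:110305812-110513209, plus strand), the ubiquitous chains of basement membrane type IV collagen, start 127 bp apart and share their peaks. Control H3K4me3 peaks flanked both starts at chr13:110305625-110306913 and chr13:110307452-110309268, and the CpG-dense window printed above for COL4A2 lies in the gap between them. COL4A3 and COL4A4, the kidney and inner ear chains, also share a head-to-head promoter, with starts 419 bp apart, and had 1 weak H3K4me3 peak in common (fold 3.65 in control and 9.24 in knockdown cells) and no H3K27ac.

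**Figure D3:**
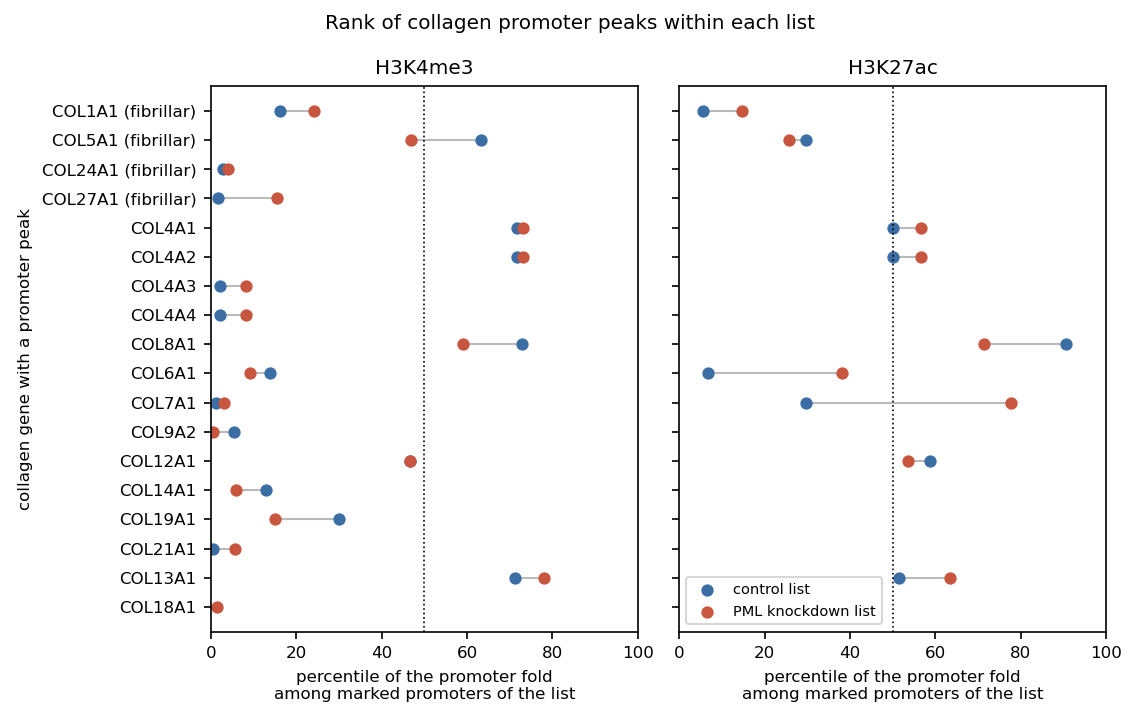
Percentile of the promoter fold enrichment among all marked promoters of the same list (x axis) for the 18 collagen genes with a promoter peak (y axis), control in blue and PML knockdown in red; the dotted line is the 50th percentile. For H3K4me3, 10 of 17 control points lie below the 20th percentile, and for H3K27ac COL8A1 is highest in the control list (90.7 percentile) and COL7A1 in the knockdown list (77.8 percentile).

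No collagen promoter was marked in 1 condition only, for either mark. Over all genes, 0.0942% and 1.79% of promoters had H3K4me3 in the control or knockdown list only, and 0.67% and 3.25% had H3K27ac so. COL18A1, the precursor of endostatin, had an H3K4me3 peak within 1 kb of its start in the knockdown list alone (chr21:45405960-45406916), but it overlapped a control peak of fold 2.21 that begins just beyond that distance (chr21:45406214-45406505). It is therefore not a difference in presence.

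The highest H3K27ac folds at collagen promoters in the control list were 22.5 at COL8A1, 9.87 at COL12A1, a FACIT chain of tendon and skin (chr6:75084326-75206267, minus strand), and 8.50 at COL13A1, at the 90.7, 58.8 and 51.6 percentile of marked promoters. In the knockdown list they were 21.2 at COL7A1, the anchoring fibril collagen of skin (chr3:48564073-48595329, minus strand), 18.1 at COL8A1 and 15.1 at COL13A1, at the 77.8, 71.4 and 63.5 percentile. COL12A1 and COL13A1 thus sat near the middle of their lists in control cells. The remaining values of these genes were a fold of 5.57 (29.7 percentile) at COL7A1 in control and 12.2 (53.7 percentile) at COL12A1 in knockdown cells. COL6A1, an obligate chain of collagen VI, had 3.05 in control and 8.63 in knockdown cells (6.75 and 38.1 percentile). The lists differ in length and depth is unknown, so these ranks describe each list and show no change between conditions.

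Within PML domains no H3K27ac peak was called at the reference start of a collagen gene. None of the 7 had a promoter peak in either list, where 35.1% and 35.6% of the 2612 genes that start in PML domains did. At another annotated start, COL11A1 and COL21A1 held an H3K27ac peak in both lists and COL3A1 in the knockdown list. H3K4me3 marked 2 of the 7 (COL21A1 and COL24A1) in each list, against 42.7% and 43.5%. Outside PML domains 15 of 35 collagen promoters had H3K4me3 in control, against 65.6% of all genes there, and 9 of 35 had H3K27ac, against 54.0%.

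The base composition of the promoters was then compared, over 1 kb on either side of the start in hg38. A promoter was called CpG-rich when GC content was at least 50% and observed over expected CpG at least 0.6, which held for 18 of the 42 collagens and 51.9% of all genes. Fibrillar promoters were CpG-rich in 4 of 11 cases and other collagen promoters in 14 of 31. Of the CpG-rich collagen promoters 9 of 18 had control H3K4me3, against 84.3% of all CpG-rich promoters. Of the rest 8 of 24 had it, against 38.9%.

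Of the 4 CpG-rich fibrillar promoters 3 had control H3K4me3 (COL5A1, COL24A1 and COL27A1, not COL2A1), and of the other 7 fibrillar promoters 1 had it (COL1A1). Of the non-fibrillar collagens 6 of 14 CpG-rich promoters and 7 of 17 others had it, which are nearly equal shares (42.9% and 41.2%). None of these differences was tested. COL3A1, COL5A2 and COL10A1, all in PML domains, were CpG-poor, with observed over expected values of 0.233, 0.271 and 0.227. COL21A1, COL11A1 and COL1A2 were intermediate at 0.409, 0.448 and 0.468, COL24A1 reached 0.626, and COL4A1 stood at 0.832. Of the PML-domain genes, COL21A1 and COL24A1 had H3K4me3 in both lists. What part PML-domain position and CpG content each had in the absence of peaks was not tested.

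**Figure D4:**
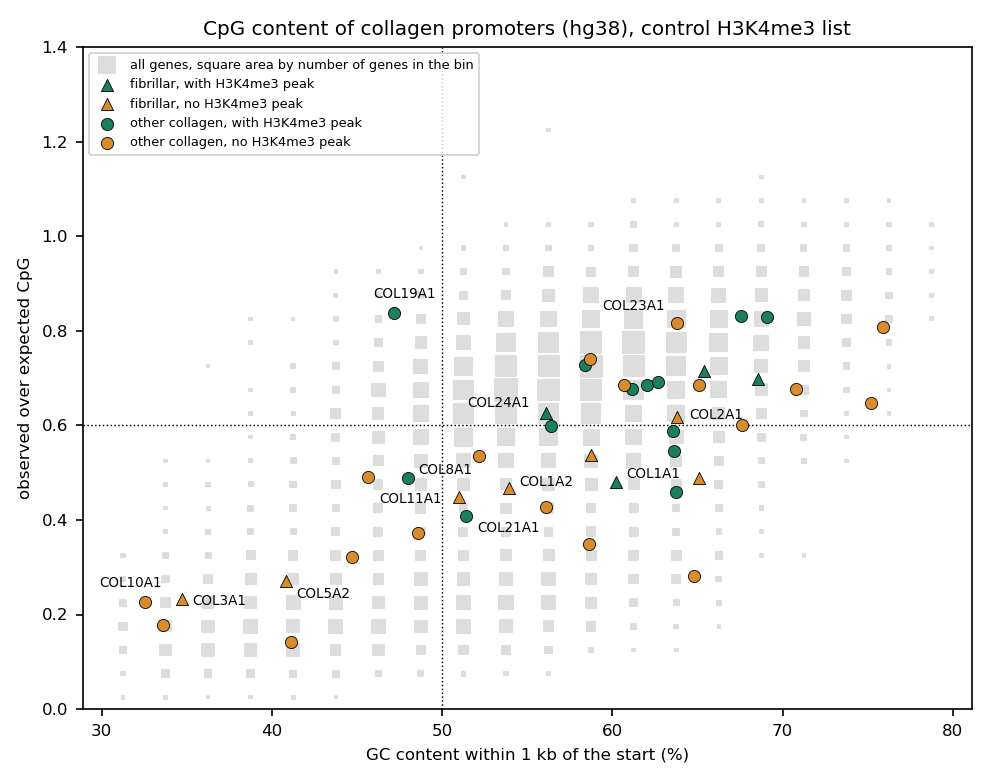
GC content within 1 kb of the start (x axis, %) against observed over expected CpG (y axis) for the 42 collagen promoters, with all genes as grey squares sized by number; green symbols have a control H3K4me3 peak, orange ones none, and triangles are fibrillar. Dotted lines mark the limits for a CpG-rich promoter, and 9 of the 18 collagens above both limits are marked.

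Peaks inside the genes were then counted beyond the promoter, from 1 kb past the reference start to the end of the gene. Parts of a gene upstream of that start were not searched. Collagen genes are long, with a median of 133 kb against 27.9 kb for all genes, so counts were read beside genes of the same length range (11588 genes of 17.3 to 494 kb). Those genes share the limits and were not matched to the collagens within them, so a difference in length may remain. At least 1 H3K27ac peak beyond the promoter lay in 24 collagen genes in control, against 34% of all genes and 46.8% of those in this range. In knockdown cells it lay in 29, against 36.1% and 48.9%. Per 100 kb of gene body the collagens held 1.43 and 1.57 H3K27ac peaks, and genes in this range 1.60 and 1.67.

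For H3K4me3, 8 collagen genes had a body peak in control, against 16.7% of all genes and 21.4% of those in the same length range. In knockdown cells 17 had one, against 24.1% and 31.6%. All 11 control peaks overlapped a knockdown peak, where 98.6% of the control body peaks of all genes did. Of the 29 knockdown peaks 10 overlapped a control peak and 19 did not, where 52.8% of the knockdown body peaks of all genes overlapped one. The knockdown list was also longer as a whole, and with the lists cut to equal numbers of peaks 12 collagens had one. In knockdown cells COL13A1, COL15A1, COL18A1 and COL27A1 had such peaks in introns, none of which overlapped a control H3K4me3 peak.

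H3K27ac in the gene body without H3K27ac at the promoter was found in 17 collagens in control, against 12.8% of all genes, and 22 in knockdown cells, against 12.9%. The promoter here is that of the reference start alone. Of these collagens, 5 in control and 7 in knockdown cells held an H3K27ac peak at another annotated start of the gene. The same share over all genes was not computed. Gene length differs between these sets, as above. Of the 83 and 91 body peaks, 77 and 87 had their summit in an intron, and 70 and 76 were away from any annotated start. Of the 83 control peaks 76 overlapped a knockdown peak, against 90.6% of the control body peaks of all genes, and of the 91 knockdown peaks 73 overlapped a control peak, against 82.6%.

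The densest genes per 100 kb were COL9A2, COL4A2 and COL13A1 in both lists. COL9A2, a short FACIT gene (chr1:40300489-40317813, minus strand), reached 12.7 and 19.0 per 100 kb with only 2 and 3 weak peaks. All of these lay at other annotated starts of COL9A2. COL4A2 held 14 control and 18 knockdown peaks. Its tallest, in intron 3 at 12.7 kb, had folds of 29.7 and 45.3 (98.3 and 98.9 percentile of all H3K27ac peaks), and another in intron 18 at 141 kb reached the 96.0 and 97.7 percentile.

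COL4A2 and its promoter partner COL4A1 differed in this respect, since COL4A1 held 2 body peaks per list, at the 9.18 and 17.2 percentile in control. COL13A1 (chr10:69801880-69964275, plus strand) held 11 and 10, all within introns 1 to 4. Its peak in intron 2 at 63.0 kb had folds of 22.5 and 32.3. The body of COL4A2, by contrast, held peaks as far as intron 40.

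Single tall peaks stood in genes with unmarked promoters. COL16A1, a FACIT chain (chr1:31652263-31704319, minus strand), had no promoter peak but an H3K27ac peak over exon 23 at the 99.6 percentile in control (fold 42.5) and the 95.2 percentile in knockdown cells (29.0), at another annotated start of the gene. COL15A1 held 5 peaks per list, the tallest in intron 35 at 114 kb with folds of 25.7 and 47.1 (97.1 and 99.1 percentile). The knockdown H3K9me3 domain described above covers all of COL15A1, and its 5 H3K27ac peaks were called in both lists.

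Of the fibrillar genes, COL5A1 (chr9:134641803-134844843, plus strand), COL5A2 and COL27A1 (chr9:114155537-114312511, plus strand) held most body peaks. COL5A1 had 6 in control and 5 in knockdown cells, all within intron 1, with the tallest at 20.7 kb (92.6 and 93.0 percentile). COL27A1 had 6 and 8, the tallest in intron 14 at 69.9 kb with folds of 23.05 and 41.5 (96.1 and 98.5 percentile). Per 100 kb the fibrillar genes held 1.54 and 1.76 and the other collagens 1.39 and 1.51.

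COL5A2 held 5 H3K27ac peaks in each list although its start lies in PML and LMNB1 domains and its promoter held no peak. The tallest, in intron 1 at 49.9 kb, had folds of 12.6 and 12.7 (84.1 and 76.1 percentile). COL3A1 next to it held 2 control peaks, in exon 3 at 10.9 kb and in intron 34 at 27.7 kb, at the 31.6 and 24.5 percentile, and 1 knockdown peak in intron 34. COL11A1 held 1 control peak at its far end, in intron 66 at 229 kb and at another annotated start (fold 13.3, and 20.2 in knockdown cells). Its knockdown list held 1 more, in intron 64 at 226 kb (fold 5.35), which overlapped no control peak. In all, 5 of the 7 PML-domain collagens held H3K27ac in the gene body in each list. Of all genes that start in PML domains, 26.8% and 27.8% did, but these were not matched for length. The 5 genes are 38.4 (COL3A1), 193 (COL5A2), 232 (COL11A1), 338 (COL21A1) and 428 kb (COL24A1) long, against a median of 27.9 kb for all genes. Of COL5A2 and COL21A1, 147 and 190 kb were searched, because the part upstream of the reference start was left out. COL1A2, of 36.3 kb, held no such peak. COL10A1, of 39.8 kb, held none in the 6.22 kb that were searched. Its nearest H3K27ac peaks lay 18.1 kb (control) and 18.3 kb (knockdown) upstream of the reference start, inside the annotated gene.

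**Figure D5:**
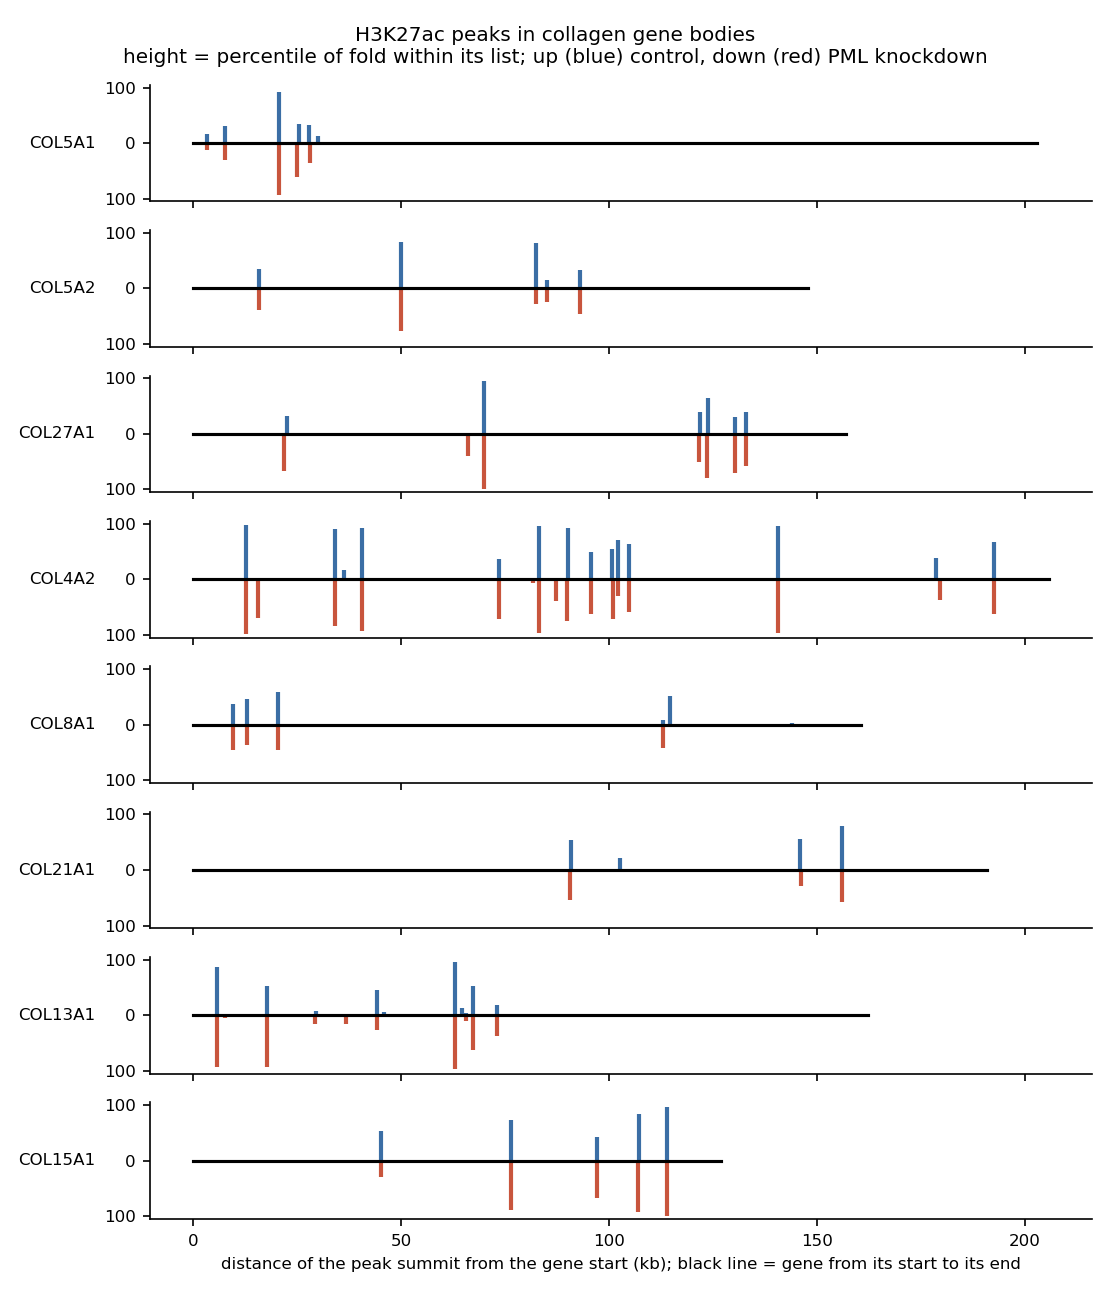
H3K27ac peaks in the bodies of 8 collagen genes, as distance of the summit from the gene start in kb (x axis), with bar height the percentile of the fold within its own list, control upward in blue and PML knockdown downward in red; promoter peaks are not drawn. Most bars in COL4A2, COL13A1, COL15A1 and COL5A2 have a partner in the other list.

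COL11A2, COL5A3, COL2A1 and COL1A1 are the remaining fibrillar genes. COL11A2 (chr6:33162681-33192499, minus strand) and COL2A1 each held 1 body H3K27ac peak in the knockdown list alone, at the 28.5 and 42.3 percentile. COL5A3 (chr19:9959561-10010504, minus strand) and COL1A1 held none in either. COL24A1 held 1 in each, in intron 37 at 307 kb.

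Genes for making, secreting and reading collagen were described for comparison, from a list of 51 autosomal genes. Of the 51, 34 had H3K4me3 at the promoter in each list (66.7%), near the 62.5% and 64.4% of all genes, and 27 and 28 had H3K27ac (52.9% and 54.9%), near the 51.4% and 54.3% of all genes. The roles differed around these totals. Enzymes and chaperones that modify and fold the chains were mostly marked: 16 of 17 had H3K4me3 at the promoter in each list, and 13 and 14 had H3K27ac. All 5 lysyl oxidases, which cross-link fibrils, had H3K4me3 in both lists. SERPINH1, the collagen chaperone, had H3K27ac folds of 13.2 and 27.4, and P4HA1, a prolyl hydroxylase subunit, had 7.95 and 12.3.

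In contrast none of the 4 fibril regulators DCN, LUM, FMOD and SPARC had a promoter peak in any list, and of the 4 collagenases only MMP14 had. PML domains held 6 of the 51 starts (11.8%, against 13.7% of all genes), a share near the background. They were DCN and LUM, small proteoglycans that bind fibrils, the collagenases MMP1, MMP8 and MMP13, and PLOD2, a lysyl hydroxylase. The MMP genes are neighbours on chromosome 11 and the proteoglycan genes on chromosome 12. PLOD2 was in LMNB1 domains of both lists and was still marked, with H3K4me3 folds of 28.6 and 18.6 and H3K27ac folds of 26.5 and 27.2.

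LOX, the founding lysyl oxidase, and DDR2, a receptor for fibrillar collagen, started in an LMNB1 domain of the knockdown list and not of the control list, 2 of the 51 where 0.628% of all genes did. The LOX promoter had an H3K27ac peak of fold 4.90 in control and none within 1 kb in knockdown cells, although another, weaker control peak there overlapped a knockdown peak beyond that distance. ADAMTS2, which trims procollagen ends, was the 1 of the 51 in an H3K9me3 domain, in both lists, against 10.4% and 8.72% of all genes. H3K27ac was called in the knockdown list only at 2 of the 51, against 3.25% of all genes, P3H2 and PCOLCE2 (10.9 and 14.0 percentile of marked promoters) and in the control list only at 1, against 0.67%, ITGA10 (12.2 percentile).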

How the data were processed

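Chromatin was cross-linked with a glutarate ester and then formaldehyde, per the labels' protocols. The submitters' processing notes name deepTools, MACS2 2.2.7.1, Picard 1.104, BWA 0.7.12-r1039 and the build hg38, with no roles. The deposited domain lists give 1 score per domain, unit not stated, and were called with EDD, per the file names. The deposited peak lists give a fold enrichment (a ratio over background) and a -log10 q-value per peak; the peak names of the deposited lists show that replicates 1 and 2 were used together. For the domain lists, pooling of replicates is not stated in the labels. Peak files marked ct and pml were read as control and PML knockdown, and domain files without the shPML prefix as control; this is an assumption. Read depth is unknown and there are no replicate values, so no difference was tested. Exact binomial intervals of 95% were computed for the fibrillar and other shares. They served only to sort the recomputed differences described at the end.

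Domain membership was scored at the start of the Ensembl canonical transcript in GENCODE release 44, and promoters as 1 kb on either side. Gene bodies ran from 1 kb past that start to the end of the gene, without peaks that touched the promoter. Parts of a gene upstream of the canonical start were left out of the body. Overlaps were of at least 1 bp. A promoter was marked in 1 list only when its peaks overlapped no peak of the other list. The work was done in Python 3.11.15 with pandas 2.3.3, numpy 2.4.6 and matplotlib 3.10.9, and overlaps were checked against bedtools 2.31.1 and on simulated lists. The RefSeq promoter windows matched 71.4% of members, so a CpG comparison in them was void, and hg38 windows of all genes were used instead, a choice made after the data were seen.

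Named genes were all fibrillar members, members in PML domains, members whose LMNB1 or H3K9me3 state differed between lists, promoters with a peak in 1 list of a mark only, the 3 highest promoter folds per list, the 3 densest genes in body H3K27ac per list and pairs sharing a promoter; a few others, such as COL6A1 for its ranks and COL15A1 and COL16A1 for single tall peaks, were chosen after their values were seen. Of 53 pathway names, 51 were autosomal genes of the annotation. The members and lists were chosen with earlier results of these data known. Alternatives were other promoter widths, stricter or equal-sized peak lists, other transcript starts, a later start of the gene body, a fibrillar set without COL24A1 and COL27A1, and, added after the data were seen, a grid-step margin and COL3A1 and COL5A2 counted as 1 gene.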

Additional observations from a re-analysis of the deposited data

How the results depend on the processing

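Of 132 recomputed values over 30 results, 126 were called the same as the reported one. For a count this meant within 1.5 times the reported count. For a fibrillar minus other difference it meant the same sign, with both shares inside 95% exact binomial intervals of the reported shares. Those intervals are wide and treat genes as independent, so large shifts could pass. Without COL24A1 and COL27A1, for example, the promoter H3K4me3 difference in control went from -5.57 to -19.7 points and was called the same. Members with H3K4me3 in the gene body of control cells fell from 8 to 5 when the body began 2.5 kb past the start, because COL2A1, COL11A1 and COL18A1 left. The fibrillar minus other difference for promoter H3K4me3 turned from -5.57 points in control to 0.880 with 0.5 kb and 9.38 with 2.5 kb on either side, and from -8.80 in knockdown cells to 9.38 with 2.5 kb. Without COL24A1 and COL27A1, that for body peaks in knockdown cells turned from 6.74 to -5.38 points (H3K4me3) and from 4.99 to -1.08 points (H3K27ac). Requiring a start 1 grid step inside a domain removed COL9A1 from the control LMNB1 count. No paired analysis was possible because the lists hold no value per replicate, and for the same reason no replicate could be left out. The lists differ in length and grid, their depth is unknown, and with 11 fibrillar genes 1 gene moves a share by about 9.09 points.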
